A study of Homo sapiens with 6 samples.

Results

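Matrix proteases, plasminogen activators and their inhibitors were followed in MDA-MB-231 cells, a human line from a triple-negative breast cancer. The 9 genes, chosen by name with earlier results of these data known, were MMP1, MMP2, MMP3, MMP14, PLAU, PLAUR, TIMP1, TIMP2 and TIMP3. They were 9 of 41471 gene symbols counted in a CDK16 knockdown experiment and 9 of 34157 counted in an inhibitor experiment, and all of them were counted in both. In the knockdown experiment, cells stably carried a lentiviral hairpin RNA (shRNA), which the cell cuts into a guide against matching transcripts. The hairpins were CDK16-sh1, CDK16-sh2 and a scramble control. In the inhibitor experiment, cells received DMSO, the vehicle, or Rebastinib (Reb), a kinase inhibitor used in the study against CDK16, at 1 μM or 5 μM for 48 h. Every condition was a single library of 1 culture, and whether the stably transduced cells were a clone or a pool is not given in the sources used here. No difference between a treated library and its control therefore has a replicate error.

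Matrix metalloproteinases (MMPs) are zinc-dependent enzymes that cut collagens and other matrix proteins. They are made as inactive proenzymes and are blocked by the tissue inhibitors of metalloproteinases (TIMPs). Urokinase, encoded by PLAU, binds its receptor, encoded by PLAUR, at the cell surface and turns plasminogen into plasmin, which degrades fibrin and can activate several proMMPs. MDA-MB-231 cells are known as an invasive line with high MMP1, MMP14 and urokinase expression.

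MMP1 (interstitial collagenase) and MMP3 (stromelysin-1) lie in the MMP gene cluster on the minus strand of chromosome 11 (GRCh38), at chr11:102789920-102798160 and chr11:102835801-102843803. MMP2 (gelatinase A) lies at chr16:55389700-55506691 and MMP14 (the membrane-anchored MT1-MMP) at chr14:22836557-22849027, both on the plus strand. PLAU lies at chr10:73909177-73917497 on the plus strand and PLAUR at chr19:43646095-43670547 on the minus strand. TIMP1 lies at chrX:47582313-47586789 on the plus strand, TIMP2 at chr17:78852977-78925387 on the minus strand and TIMP3 at chr22:32801701-32863043 on the plus strand. Each interval runs from the first to the last exon base in the deposited tables.

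The 4 proteases share the zinc-binding site of the catalytic domain, 3 histidines spaced along 11 residues. Its coding sequence is shown because it is the motif that makes the 4 enzymes a family. The 33 bases are from GENCODE 29 transcripts, with the histidine codons in capitals.
MMP1, residues 218 to 228: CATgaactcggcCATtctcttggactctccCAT
MMP3, residues 218 to 228: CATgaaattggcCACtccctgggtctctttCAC
MMP2, residues 403 to 413: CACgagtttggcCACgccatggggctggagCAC
MMP14, residues 239 to 249: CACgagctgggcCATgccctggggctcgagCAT
Identity over the 33 bases ran from 54.5% between MMP1 and MMP2 to 81.8% between MMP2 and MMP14, and was 72.7% between MMP1 and MMP3. Of the distinct 50-base stretches over all transcripts of a gene, 2.88% in MMP3 also occurred in another gene (MMP10), 2.57% in MMP2 (AC007336.3) and 2.68% in TIMP2 (CEP295NL), and none in the other 6 genes.

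RefSeq promoter sequences (GRCh38.p14, from 250 bases before to 50 bases after a transcription start) were found for 5 of the 9 genes, namely MMP14, PLAU, PLAUR, TIMP1 and TIMP3, with 2 starts for PLAU. MMP1, MMP2, MMP3 and TIMP2 had no entry. The 4 promoters below belong to the urokinase pair and to 2 genes that lay on opposite sides of DMSO at 5 μM Reb. Capitals mark matches to TGANTCA (an AP-1 site) and GGGCGG (a GC box), searched on both strands.
PLAU, chr10:73910882-73911181, plus strand: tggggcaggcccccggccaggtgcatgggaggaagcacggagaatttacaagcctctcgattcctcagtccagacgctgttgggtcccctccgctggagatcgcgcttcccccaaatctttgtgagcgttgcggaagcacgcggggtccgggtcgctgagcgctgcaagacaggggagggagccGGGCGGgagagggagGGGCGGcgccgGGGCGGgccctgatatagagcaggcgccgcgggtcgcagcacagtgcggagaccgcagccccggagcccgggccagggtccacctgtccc
PLAUR, chr19:43670120-43670419, minus strand: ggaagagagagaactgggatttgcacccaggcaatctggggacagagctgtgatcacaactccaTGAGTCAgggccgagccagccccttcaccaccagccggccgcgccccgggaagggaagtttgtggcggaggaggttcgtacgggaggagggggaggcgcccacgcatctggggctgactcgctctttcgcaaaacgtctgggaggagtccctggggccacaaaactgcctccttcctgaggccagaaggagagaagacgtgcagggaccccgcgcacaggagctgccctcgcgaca
MMP14, chr14:22836335-22836634, plus strand: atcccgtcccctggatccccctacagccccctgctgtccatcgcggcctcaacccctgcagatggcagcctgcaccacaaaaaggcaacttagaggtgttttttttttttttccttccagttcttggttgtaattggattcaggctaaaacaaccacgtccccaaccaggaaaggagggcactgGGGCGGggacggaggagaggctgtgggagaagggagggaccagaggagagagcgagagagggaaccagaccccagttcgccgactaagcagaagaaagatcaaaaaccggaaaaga
TIMP1, chrX:47582186-47582485, plus strand: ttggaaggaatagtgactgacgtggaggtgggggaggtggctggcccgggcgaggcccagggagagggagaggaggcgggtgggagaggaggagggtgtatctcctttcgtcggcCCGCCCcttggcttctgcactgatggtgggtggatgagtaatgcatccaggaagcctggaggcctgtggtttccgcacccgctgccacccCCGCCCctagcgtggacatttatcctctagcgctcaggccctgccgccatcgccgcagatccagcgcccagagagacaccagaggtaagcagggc
PLAUR held 1 AP-1 match, at position -186 from the start, and the other 5 windows held none. GC boxes numbered 3 in the PLAU window shown, 1 in MMP14, 2 in TIMP1 and 5 in TIMP3. Of 35116 promoters of the same length, 7.71% held the AP-1 motif and 45.0% the GC box. Neither TATAAA (in 11.5% of all promoters) nor TGACGTCA (in 1.85%) occurred in any window of these genes.

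Total counts ranged from 25838443 to 50303269 per library. Mitochondrial transcripts took 10.4% to 16.2% of counts in the knockdown experiment and 7.19%, 8.3% and 16.4% in the DMSO, 1 μM and 5 μM libraries, and the 100 most abundant genes took 24.3%, 24.4% and 35.3% of the latter 3. CDK16 itself had 3223 counts in the scramble library, 1360 with CDK16-sh1 and 846 with CDK16-sh2. VIM, CD44 and AXL, which mark this line, were abundant in all 6 libraries, while ESR1, PGR and CDH1 had at most 12, 16 and 53 counts, each highest in the 1 μM library. ERBB2 and EPCAM, listed with them as low in triple-negative cells, were not silent, at 996 to 3396 and 125 to 408 counts. Markers of leukocytes, endothelium and fibroblasts summed to 17.0 to 29.5 CPM (counts scaled to library size), most of it COL1A1, with COL1A2 at no more than 8 counts.

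Levels between genes were compared as the authors' RPKM, which divides the count by exon length and library total. In the scramble library MMP1 stood first at 691 RPKM, followed by MMP14 at 175 RPKM and TIMP3 at 99.6 RPKM. PLAU (80.1), TIMP1 (59.5), TIMP2 (55.9) and PLAUR (53.9 RPKM) came next, while MMP3 (1.08) and MMP2 (0.118 RPKM) were far below. The neighbours TIMP1, TIMP2 and PLAUR differed by less than the changes seen between libraries, and their order has no replicate error. DMSO cells had the same first and last places, with MMP1 at 715 RPKM, MMP14 at 131, PLAUR at 91.7, PLAU at 60.3, TIMP2 at 47.9, TIMP1 at 27.7, TIMP3 at 17.6, MMP3 at 3.49 and MMP2 at 0.484 RPKM.

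The 2 control libraries of the same line did not match in every gene. The deposited tables were normalized separately, and experiment and shRNA carriage cannot be told apart in this contrast. On the log2(RPKM + 0.1) scale, DMSO against scramble differed by -2.50 for TIMP3, 1.61 for MMP3, 1.42 for MMP2 and -1.10 for TIMP1, against a median of -0.12 over 14410 genes. MMP1 (0.05), TIMP2 (-0.22), PLAU (-0.41), MMP14 (-0.42) and PLAUR (0.77) lay closer. For TIMP3 this gap between controls was larger than any difference of TIMP3 between a treated library and its own control.

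**Figure D1:**
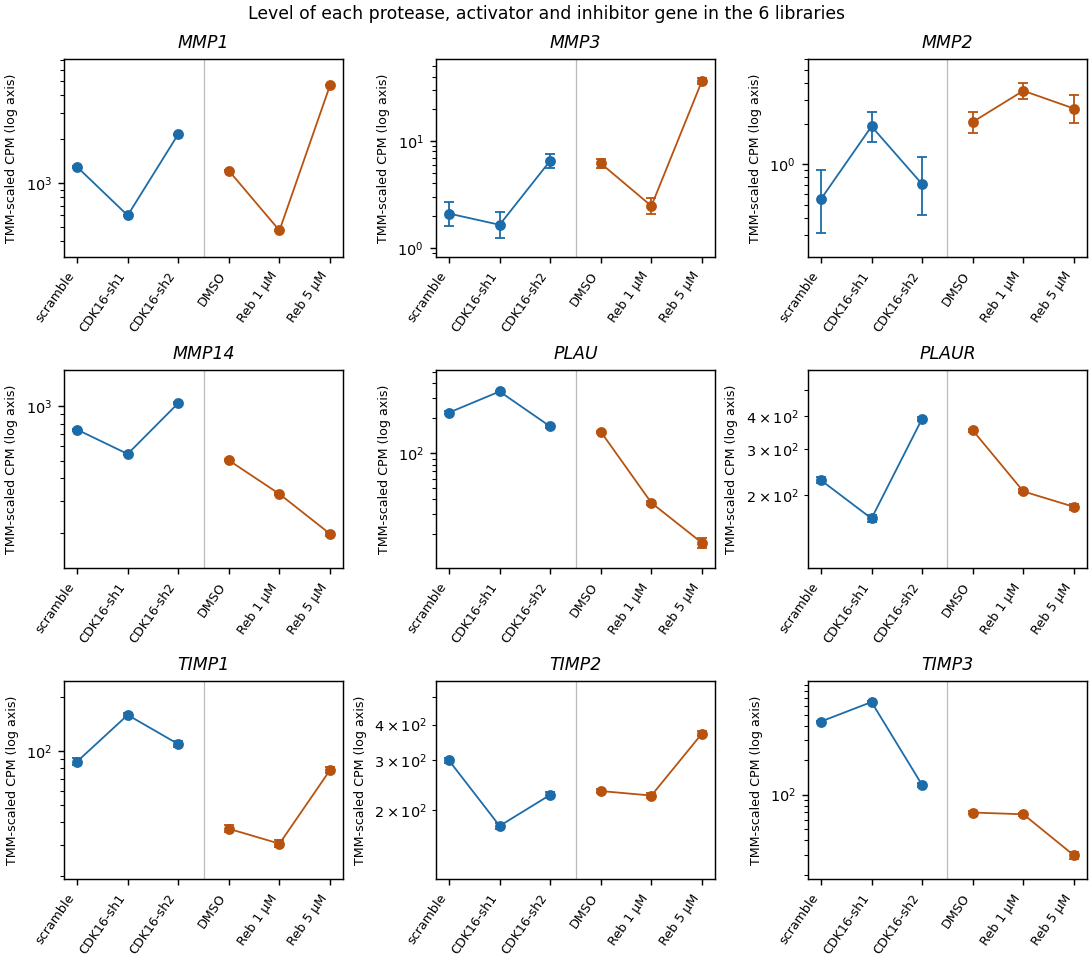
Each panel plots the TMM-scaled CPM (log axis) of a gene in the scramble, CDK16-sh1 and CDK16-sh2 libraries (blue) and the DMSO, 1 μM and 5 μM Reb libraries (orange), with exact 95% Poisson intervals that cover counting error only. PLAU steps down from 154 to 37.4 and 16.9 CPM over the Reb libraries, while MMP1 and MMP3 are lowest at 1 μM and highest at 5 μM.

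Changes are given as log2 fold changes of CPM scaled by the trimmed mean of M values (TMM), treated against control, with a prior count of 2. The brackets hold exact 95% Clopper-Pearson intervals, which cover counting error only. Genes averaging at least 1 CPM over the 3 libraries were kept, 15295 in the knockdown and 15655 in the Reb experiment, and all 9 genes passed in both. A gene is called lower or higher when it differed at least 2-fold. In bulk RNA, a change in the number of cells that express a gene and a change in RNA per cell cannot be told apart.

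Whether Reb altered the collagenase and stromelysin transcripts was read from 3 libraries. MMP1, which cuts fibrillar collagen, had 70867 counts in DMSO cells, 28057 at the low dose and 126879 at the high dose. MMP3, which cuts a wide range of matrix proteins and can activate proMMP1, had 360, 146 and 990 counts. Both genes were lowest at the low dose and highest at the high dose. At 1 μM the log2 fold change was -1.36 [-1.38, -1.34] for MMP1 and -1.31 [-1.61, -1.04] for MMP3. At 5 μM it was 1.95 [1.94, 1.96] for MMP1 and 2.56 [2.39, 2.75] for MMP3, or 3.86-fold and 5.90-fold higher than DMSO. Over the alternative scalings, filters and trends removed, these 5 μM values ran from 1.01 to 2.01 for MMP1 and from 1.85 to 2.76 for MMP3. MMP1 took a level of 1710 RPKM at 5 μM, the highest of any of the 9 genes in any library.

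PLAU had 8950 counts in DMSO cells, 2220 at the low dose and 458 at the high dose. Its level was lower at each higher dose, from 154 to 37.4 and 16.9 CPM. Its log2 fold change was -2.03 [-2.10, -1.97] at 1 μM and -3.18 [-3.32, -3.05] at 5 μM, which is 4.09-fold and 9.04-fold lower. At 1 μM only 50 of the 15655 tested genes had a lower value, and at 5 μM 359 did. In RPKM, PLAU went from rank 4 of the 9 genes with DMSO to rank 8 at 5 μM (4.12 RPKM), above MMP2 alone.

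The receptor PLAUR had 20552, 12239 and 4883 counts in the same libraries. Its log2 fold change was -0.77 [-0.80, -0.74] at 1 μM and -0.96 [-1.01, -0.92] at 5 μM, so it was below DMSO in both and within 2-fold, although at 5 μM it passed 2-fold when libraries were scaled by their totals (-1.66). The receptor was thus lower by less than its ligand. Within a library, the per-length ratio of PLAU to PLAUR was 0.658 in DMSO cells, 0.274 at the low dose and 0.142 at the high dose. This ratio does not depend on how libraries were scaled.

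MMP14, which anchors at the cell surface and activates proMMP2 together with TIMP2, had 29335 counts in DMSO cells, 19462 at the low dose and 5357 at the high dose. Its log2 fold change was -0.62 [-0.64, -0.59] and -1.35 [-1.39, -1.30]. TIMP2 had 13587, 13313 and 10057 counts, with log2 fold changes of -0.05 [-0.09, -0.02] and 0.67 [0.64, 0.71]. The level of MMP14 was lower at each higher dose, whereas TIMP2 stayed near its control at 1 μM. Their per-length ratio, MMP14 to TIMP2, was 2.72 in DMSO cells, 1.84 at the low dose and 0.672 at the high dose, so that TIMP2 exceeded MMP14 per length only in the 5 μM library of the 6. MMP2, the substrate of this pair, had 120, 208 and 70 counts, and its log2 fold change was 0.76 [0.44, 1.11] at 1 μM and 0.33 [-0.12, 0.77] at 5 μM. At 5 μM the counting interval of MMP2 reached to both sides of DMSO.

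TIMP1, a secreted inhibitor of most MMPs, had 2147 counts in DMSO cells, 1800 at the low dose and 2112 at the high dose. Its log2 fold change was -0.28 [-0.37, -0.19] and 1.08 [1.00, 1.17]. The raw count at 5 μM lay just under that of DMSO, and the higher value came with the scaling of that library. TIMP3, the inhibitor that stays bound to the matrix, had 4068, 3993 and 798 counts, with log2 fold changes of -0.05 [-0.11, 0.01] and -1.24 [-1.35, -1.13]. TIMP3 was level with DMSO at 1 μM and 2.36-fold lower at 5 μM.

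**Figure D2:**
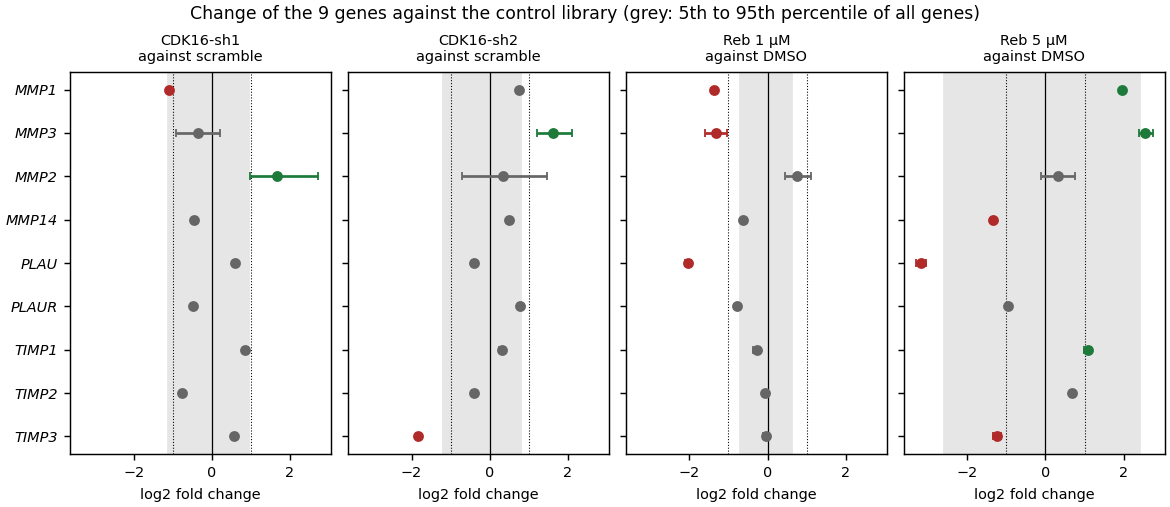
Points give the log2 fold change of the 9 genes against the control library in the 4 treated libraries, with 95% counting intervals, in red where at least 2-fold lower and in green where at least 2-fold higher. The grey band spans the 5th to 95th percentile of all tested genes. PLAU and MMP3 lie outside the band at both Reb doses, and MMP1, MMP2 and PLAUR lie outside it at 1 μM but not at 5 μM.

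At 1 μM, 3 of the 9 genes (MMP1, MMP3 and PLAU) were called lower, where 1.92% of all tested genes were. None was called higher, where 1.28% of all genes were. The 9 genes were chosen with earlier results of these data known, so these shares are no test of the group. At 5 μM, 3 genes (MMP14, PLAU and TIMP3) were called lower, against 27.2% of all genes, and 3 (MMP1, MMP3 and TIMP1) were called higher, against 23.6%. At 5 μM, 3 of 9 genes in each direction is near that background. The 2 comparisons share the DMSO library.

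The main test took both doses as a group against DMSO, and its spread is that between doses, not between replicates. In edgeR's quasi-likelihood test, 12 of 15655 genes (0.0767%) passed an adjusted p-value of 0.05 with a 2-fold change, and none of the 9 genes did. PLAU had the smallest p-value of the 9 genes, 0.0292 in edgeR, with an adjusted p-value of 1.0 and a log2 fold change of -2.50, lower in 2 of 2 treated libraries. It was the only gene of the 9 with an unadjusted p-value under 0.05, by DESeq2 as well, which called 17 genes in all and none of these. With dose as a linear term, edgeR called 3819 genes, among them MMP1 (adjusted p-value 0.0228), MMP3 (0.00128) and PLAU (0.000232). That fit assumes a straight line over the 3 libraries, which MMP1 and MMP3 did not follow. Its 3 of 9 genes are near the share that it called over all 15655 tested genes.

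In the knockdown experiment, the question was whether the same genes differed when CDK16 was lowered by either hairpin. The 2 hairpin libraries share the scramble library as control, and their values are given side by side.

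MMP1 had 35158 counts in the scramble library, 19809 with CDK16-sh1 and 54723 with CDK16-sh2. Its log2 fold change was -1.10 [-1.13, -1.08] with CDK16-sh1 and 0.75 [0.73, 0.77] with CDK16-sh2. MMP3 had 57, 54 and 165 counts, with log2 fold changes of -0.34 [-0.92, 0.21] and 1.61 [1.20, 2.10]. With CDK16-sh2 both genes were above scramble. With CDK16-sh1 MMP1 was below it, while the counting interval of MMP3 included 0. Neither difference has a replicate error. MMP2 had 15, 63 and 18 counts and log2 fold changes of 1.67 [0.96, 2.71] and 0.33 [-0.70, 1.46]. The MMP2 counts were the lowest among the 9 genes with scramble and CDK16-sh2, while with CDK16-sh1 MMP3 was lower, at 54. With CDK16-sh2 the counting interval of MMP2 included 0.

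MMP14 had 20230 counts with scramble, 17995 with CDK16-sh1 and 26289 with CDK16-sh2, and its log2 fold changes were -0.45 [-0.47, -0.42] and 0.49 [0.46, 0.51]. PLAUR had 6203, 5376 and 9851 counts, with log2 fold changes of -0.48 [-0.54, -0.43] and 0.78 [0.73, 0.82]. MMP14 and PLAUR were both lowest with CDK16-sh1 and highest with CDK16-sh2, as MMP1 was. PLAU had 6105, 11238 and 4302 counts and went the other way, with log2 fold changes of 0.60 [0.56, 0.65] and -0.40 [-0.45, -0.34]. The per-length ratio of PLAU to PLAUR was 1.49 with scramble, 3.16 with CDK16-sh1 and 0.66 with CDK16-sh2.

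TIMP1 had 2369 counts with scramble, 5215 with CDK16-sh1 and 2750 with CDK16-sh2, and its log2 fold changes were 0.86 [0.79, 0.93] and 0.32 [0.24, 0.40]. TIMP2 had 8134, 5791 and 5709 counts, with log2 fold changes of -0.77 [-0.82, -0.72] and -0.40 [-0.45, -0.35]. TIMP1 was above scramble and TIMP2 below it in both libraries, each within 2-fold. TIMP3 had 11840, 21222 and 3068 counts, and its log2 fold change was 0.57 [0.53, 0.60] with CDK16-sh1 and -1.84 [-1.90, -1.78] with CDK16-sh2. In RPKM the level of TIMP3 was 24.2 with CDK16-sh2, 99.6 with scramble and 144 with CDK16-sh1.

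With CDK16-sh1, 1 gene (MMP1) was called lower, against 6.86% of all tested genes, and 1 (MMP2) was called higher, against 4.33%. With CDK16-sh2, 1 gene (TIMP3) was called lower, against 7.62% of all genes, and 1 (MMP3) was called higher, against 2.2%. The pooled test of both hairpins against scramble called 0 of 15295 genes (0.0%) in edgeR, with 379 genes and none of the 9 at an unadjusted p-value under 0.05, and DESeq2 also called 0, with 233 genes under 0.05. The smallest p-value among the 9 genes was 0.167 in edgeR, for MMP2, with an adjusted p-value of 1.0. Fold changes with CDK16-sh1 were higher for transcripts of higher GC content (r = 0.478 across genes, which are not replicates). MMP1 has a GC content of 43.4%, the lowest of the 9 genes, and with that trend removed its value with CDK16-sh1 was -0.85, within 2-fold.

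Ratios of a protease to its inhibitor in the same library were chosen after the values had been seen, and they do not depend on scaling. The per-length ratio of MMP1 to TIMP1 was 11.6 with scramble, 2.97 with CDK16-sh1 and 15.6 with CDK16-sh2. It was 25.8 in DMSO cells, 12.2 at the low dose and 47.0 at the high dose. MMP1 thus exceeded TIMP1 per length in all 6 libraries. MMP1 to MMP3 was 641 with scramble, 381 with CDK16-sh1 and 345 with CDK16-sh2, where MMP3 had few counts. It was 205 in DMSO cells, 200 at the low dose and 133 at the high dose. The proportion of these neighbouring genes was thus nearly the same with DMSO and at 1 μM, and lower at 5 μM.

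Genes on the opposite strand share exon bases with some of these genes. The libraries were prepared with a stranded kit, and the strand setting of the counting is not given in the sources used here. WTAPP1, a pseudogene, shares 150 exon bases (7.61%) with MMP1 and 32 (1.56%) with MMP3. Its counts were 16596 with scramble, 7473 with CDK16-sh1, 26616 with CDK16-sh2, 41377 with DMSO, 16172 at 1 μM and 66774 at 5 μM. WTAPP1 was lowest and highest in the same libraries as MMP1 within each experiment, at 0.377 to 0.584 counts per MMP1 count. C10orf55 shares 916 exon bases, 31.1% of PLAU, and had 1446, 2406 and 845 counts in the knockdown and 2483, 633 and 160 in the Reb experiment. These were 0.196 to 0.349 counts per PLAU count, so that reads of the 2 genes cannot be told apart where they overlap. TIMP2 shares 367 bases with RP11-323N12.5 on the opposite strand and 198 with CEP295NL on its own strand, and MMP2 shares 174 with RP11-212I21.3 on its own strand.

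**Figure D3:**
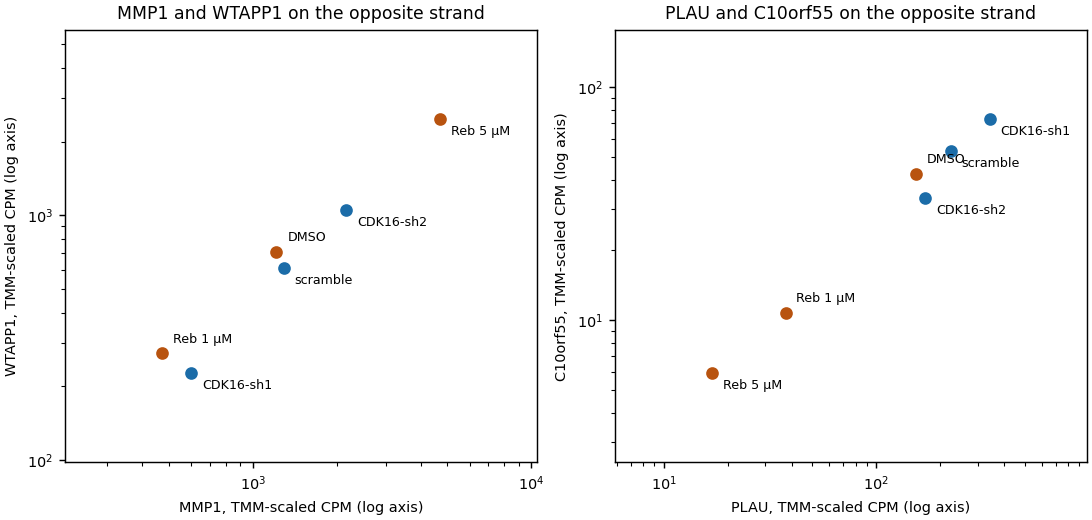
TMM-scaled CPM of MMP1 against WTAPP1 and of PLAU against C10orf55 (log axes), 1 point per library, blue for the knockdown and orange for the Reb experiment. In both panels the opposite-strand gene is high where its partner is high, with MMP1 from 473 CPM at 1 μM to 4691 at 5 μM.

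Other genes of the same families were described from lists by their counts and medians, beside the median of all tested genes (0.00 and 0.02 for CDK16-sh1 and CDK16-sh2, 0.00 and -0.07 for 1 μM and 5 μM). Over all tested genes, 1.92% were called lower and 1.28% higher at 1 μM, and 27.2% and 23.6% at 5 μM. With CDK16-sh1 these shares were 6.86% and 4.33%, and with CDK16-sh2 7.62% and 2.2%. The lists were written with earlier results of these data known, so the shares are no test of a list. Of 17 secreted MMP genes, 5 were tested in the Reb experiment, with 3 called lower and none higher at 1 μM (median -1.31) and 1 lower and 2 higher at 5 μM (median 0.32), 3 of the 5 being MMP1, MMP2 and MMP3. The tested gene called lower that is not among the 9 was MMP9 (gelatinase B), with 1570 counts in DMSO cells, 147 at the low dose and 208 at the high dose and log2 fold changes of -3.42 and -1.80. MMP9 was scarce in the whole knockdown experiment, its scramble control included, at 24, 25 and 4 counts. The controls differed for MMP9, at 0.398 RPKM with scramble and 13.4 RPKM with DMSO. Its Reb values thus rest on a single DMSO library with a far higher level than scramble. Within the chromosome 11 cluster only MMP1 and MMP3 were tested, and MMP10, next to them, had at most 9 counts in any library.

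Among membrane-type MMPs, 5 of 6 were tested in the Reb experiment, with 2 lower and 2 higher at 5 μM, beside 27.2% and 23.6% of all genes. MMP15 (562, 520 and 104 counts) had a log2 fold change of -1.32 at 5 μM, near that of MMP14, while MMP24 (321, 298 and 302 counts) had 1.02. The raw count of MMP24 at 5 μM lay under that of DMSO, and the higher value came with the scaling of that library. Of the TIMPs and other regulators, none of 5 was called at 1 μM. At 5 μM, 1 was lower and 2 were higher, the latter being TIMP1 and BSG (basigin, an inducer of MMPs), which had 14859, 14773 and 24464 counts and a log2 fold change of 1.83. In the knockdown experiment RECK, a membrane-anchored MMP inhibitor named here after its values were seen, was the single regulator called lower with CDK16-sh1, at 139, 78 and 81 counts and -1.09. Over all genes, 6.86% were called lower with CDK16-sh1.

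For plasminogen activation and its serpins, 10 of 15 genes were tested. At 1 μM, 2 were called lower and none higher (median -0.36), and at 5 μM 3 were lower and 3 higher (median -0.51). The 5 μM counts are near the 27.2% lower and 23.6% higher over all genes. At 1 μM those shares were 1.92% and 1.28%. Without PLAU and PLAUR, the medians of the other 8 genes were -0.05 and -0.07, beside 0.00 and -0.07 over all genes. SERPINB2 (a urokinase inhibitor) was lower with PLAU at 1 μM, with 682, 106 and 308 counts and log2 fold changes of -2.68 and -0.04. PLAT, which encodes the tissue-type activator, had 9813, 11978 and 729 counts and was lower only at 5 μM, at -2.64 against 0.26 at 1 μM. SERPINE2 (protease nexin-1) was on the other side, with 2197, 3281 and 3788 counts and 0.55 and 1.89. Both activators were thus below DMSO at 5 μM and PLAU alone was below it at 1 μM, while plasminogen itself (PLG) was not tested, with at most 1 count in the knockdown experiment. With CDK16-sh1, 2 genes of this list were higher and none lower, beside 4.33% and 6.86% of all genes. Among the 2 was S100A10 (a plasminogen-binding surface protein, 5834 and 14814 counts, 1.07). With CDK16-sh2, 2 were lower and 1 was higher, beside 7.62% and 2.2% of all genes. LRP1, the receptor that clears urokinase complexes, was at -1.22.

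**Figure D4:**
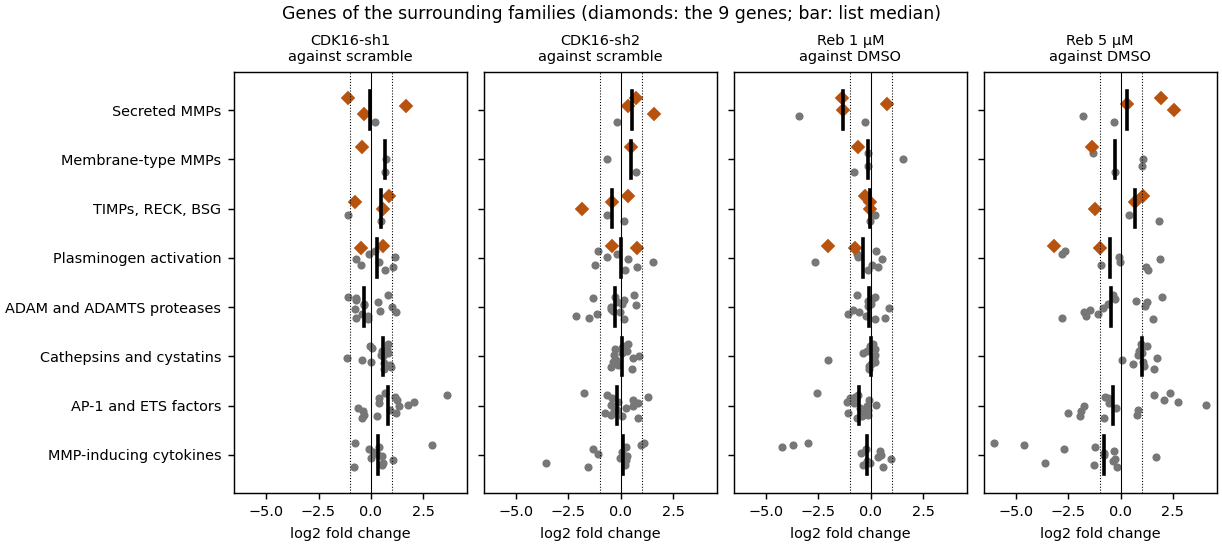
Log2 fold changes of all tested genes of 8 lists in the 4 treated libraries, with the 9 genes as orange diamonds, other list genes as grey points and the list median as a black bar. With TMM scaling, the cathepsin and cystatin median at 5 μM is 1.01, and the secreted MMP median goes from -1.31 at 1 μM to 0.32 at 5 μM.

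Cathepsins, cystatins, ADAM and ADAMTS genes were described in the same way. Of 12 tested cathepsins and cystatins, lysosomal proteases and their inhibitors, 6 were higher and none lower at 5 μM (median 1.01), among them CTSL (1.72), CSTB (1.60) and CTSB (1.25). Their counts in DMSO and 5 μM cells were 5948 and 9082, 1545 and 2179, and 7801 and 8585, so these values rest in part on the scaling. The list was not summarized with library totals, which moved the median of all genes from -0.07 to -0.75 at 5 μM. At 1 μM the median was -0.01. Of 14 ADAM and ADAMTS genes, 5 were lower and 4 higher at 5 μM, beside 27.2% and 23.6% of all genes, with ADAMTS15 at -2.80, ADAMTS12 at -1.67 and ADAM9 at 1.96. In the knockdown experiment, 4 of 15 ADAM and ADAMTS genes were lower with CDK16-sh2 and 1 with CDK16-sh1, beside 7.62% and 6.86% of all genes. The 1 of 15 with CDK16-sh1 is near that share. ADAMTS12 (-0.16 and -2.12), ADAMTS15 (-0.70 and -1.52) and ADAM10 (-0.73 and -1.35) had the largest values. Of 15 cathepsins and cystatins, CTSL had 0.59 and 0.89, CST3 0.92 and -0.15, and CST6 0.97 and -0.48.

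AP-1 and ETS factors are transcription factors known to act on MMP and urokinase genes. At 1 μM 4 of 16 were lower and none higher (median -0.56), and at 5 μM 4 were lower and 5 higher (median -0.37). Over all genes, 1.92% were lower at 1 μM. At 5 μM 27.2% were lower and 23.6% higher, which is near the shares of this list. FOS had 626, 106 and 1476 counts, with log2 fold changes of -2.56 and 2.34. JUNB had 1465, 670 and 4497 counts, with -1.15 and 2.72. Both were lowest at 1 μM and highest at 5 μM, as MMP1 and MMP3 were, whereas ATF3 had 0.25 and 4.08. With CDK16-sh1, 7 of 16 were higher and none lower, beside 4.33% and 6.86% of all genes. FOSB (3.62), JUNB (2.06) and ATF3 (1.76) were highest, and with CDK16-sh2 these 3 had -0.68, -0.16 and -0.48. Fold changes with CDK16-sh1 were higher at higher GC content (r = 0.478 across genes). The list was not summarized with that trend removed. With CDK16-sh2, beside 7.62% lower and 2.2% higher over all genes, 1 of the list was lower and 1 higher (median -0.18). The latter was FOSL1, named after its values were seen, which had 22090, 60375 and 51293 counts and log2 fold changes of 1.17 and 1.32. Cytokines known to induce MMP genes were called lower in 3 of 13 cases at 1 μM, beside 1.92% of all genes. At 5 μM 6 were lower and 1 was higher, beside 27.2% and 23.6% of all genes. IL1B had 9469, 742 and 177 counts (-3.69 and -4.62), IL6 had 1800, 95 and 356 counts (-4.23 and -1.23) and LIF had 2282, 1979 and 159 counts (-0.23 and -2.73). The controls themselves differed for IL1B, at 1.5 RPKM with scramble and 60.8 RPKM with DMSO, and IL6 had only 81 counts with scramble. The IL1B and IL6 values thus rest on a single DMSO library with far higher levels than scramble. Whether these factors or cytokines have a part in the values of the 9 genes was not tested. In the knockdown experiment, 2 of 12 cytokines were higher with CDK16-sh1, beside 4.33% of all genes. With CDK16-sh2 4 were lower and 1 higher, beside 7.62% and 2.2% of all genes. IL6 had 2.91 and 0.97, TGFB2 -0.82 and -1.57 and TGFA -0.10 and -1.32.

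Across 10554 genes averaging at least 5 CPM in both experiments, the genes nearest in pattern were found by Euclidean distance over the 4 log2 fold changes, for the 7 genes past 2-fold anywhere. The 4 values come from 2 pairs that each share a control. Nearest to MMP1 was WTAPP1 (distance 0.36), the gene on its opposite strand, ahead of PLPP3 (0.80). Nearest to PLAU were UBALD2 (0.41) and C10orf55 (0.46). MMP14 was nearest to MOCS3 (0.24) and CCDC28A (0.28), TIMP1 to TMEM147 (0.13) and AP000350.10 (0.19), and TIMP3 to CDKN3 (0.44) and SF3A3 (0.66). MMP3 had no close neighbour, with SAT1 at 1.15 and MED30 at 1.28. MMP2 was nearest to GLIDR (0.68) and RPL7P9 (0.71).

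The 5 μM library was the one in which scaling moved values most. Scaling by library totals in place of TMM moved the median of all genes from -0.07 to -0.75 at 5 μM, and from 0.02 to -0.18 with CDK16-sh2. At 5 μM, totals gave PLAU -3.87, TIMP3 -1.93, MMP14 -2.04, PLAUR -1.66, MMP1 1.26 and MMP3 1.87. These 6 genes kept their side of DMSO. TIMP1 had 0.39, TIMP2 -0.02 and MMP2 -0.35 with totals, so the direction of the last 2 and the calls of TIMP1 and PLAUR depended on the scaling. With totals, 4 of the 9 genes were called lower and 2 higher at 5 μM. With the trend on GC content removed, the 5 μM values of MMP14, TIMP2 and TIMP1 were -0.82, 1.03 and 1.59.

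**Figure D5:**
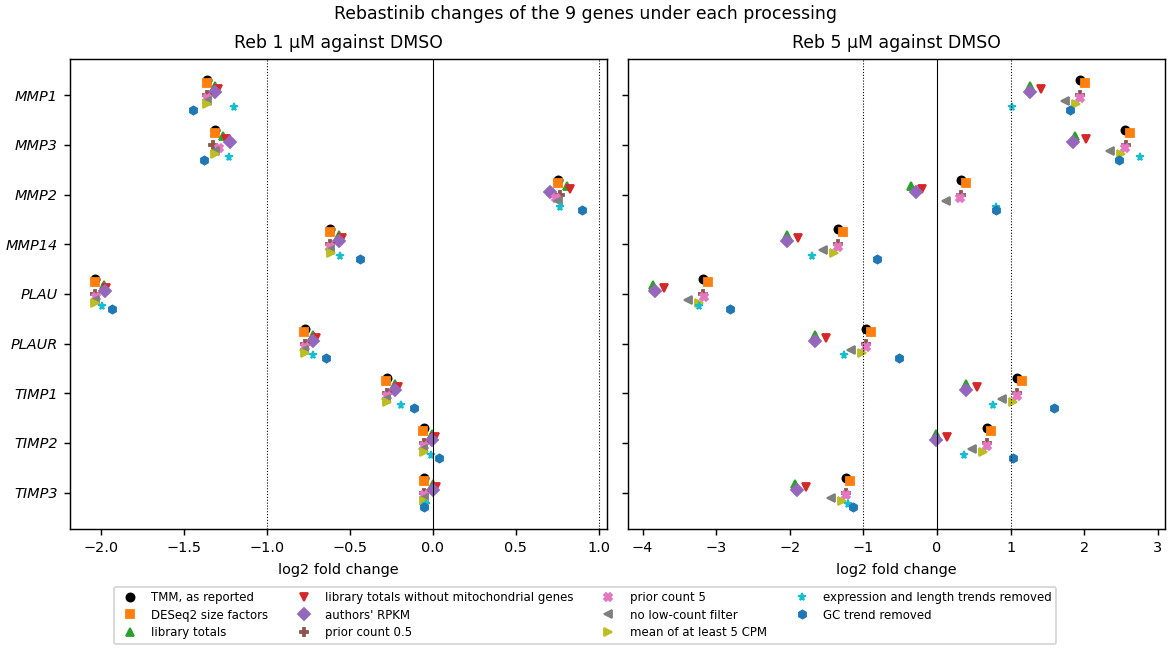
Log2 fold change of the 9 genes at 1 μM (left) and 5 μM (right) Reb against DMSO under the reported TMM scaling (black circles) and each alternative, with dotted lines at 2-fold. At 1 μM the alternatives lie close together, while at 5 μM TIMP2 ranges from -0.02 with library totals to 1.03 with the GC trend removed.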

How the data were processed

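RNA-seq libraries of MDA-MB-231 cells were analysed, 1 for each of 6 conditions. Per the submitters' processing notes, reads were trimmed with Trimmomatic and counted with featureCounts (Subread 1.5.1) on GRCh38. The aligner, annotation and strand setting are not given in the sources used here. The deposited count tables hold the authors' whole-number read count per gene symbol, not normalized. The deposited RPKM values were the authors' counts per exon length and per library total.

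Counts were scaled with TMM in R 4.3.3 (edgeR 4.0.16), with a prior count of 2, for genes averaging at least 1 CPM. With 1 library per condition no p-value was computed for single comparisons, and a gene was called past 2-fold. The pooled test used edgeR's quasi-likelihood test and, as an alternative, DESeq2 1.42.0, both with Benjamini-Hochberg adjustment (0.05), and was tested on simulated data. For the fit with dose as a linear term, the fold runs from DMSO to 5 μM. Intervals used scipy 1.17.1 in Python 3.11.15, and figures matplotlib 3.10.9. Reads are not independent molecules, so intervals cover counting error only. GC content and transcript overlap came from GENCODE 29, with GC content known for 84.6% and 84.3% of tested genes, and promoters from RefSeq (GRCh38.p14).

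The 9 genes and the hand-written lists were chosen with earlier results of these data known. Besides the 9 genes, the genes named are the 3 of each list with the largest absolute log2 fold change in either treated library, at a mean of at least 5 CPM, and the 2 nearest in pattern. A gene that this rule also selects is not reported here. The overlapping genes, RECK, MMP10 and PLG were named after their values were seen, as were the within-library ratios and the comparison of controls. The alternatives were other scalings, prior counts, filters, trends removed, fold thresholds and tests.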

Additional observations from a re-analysis of the deposited data

How the results depend on the processing

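Each condition had 1 library, so leaving out a replicate could not be run, and no paired analysis was possible because no replicate numbers are shared. The 36 log2 fold changes of the 9 genes crossed 2-fold in 2 cases with library totals (with or without mitochondrial genes), the authors' RPKM, no filter or the expression and length trends removed, in 3 with the GC trend removed, in 1 of 30 with a mean of at least 5 CPM, and in 0 with DESeq2 size factors or a prior count of 0.5 or 5. No value past 2-fold changed direction under these alternatives. At 1.5-fold, the genes called lower and higher became 2 and 3 with CDK16-sh1, and 3 higher with CDK16-sh2. They became 5 and 1 at 1 μM, and 4 and 4 at 5 μM. At 4-fold they became 0 and 0 with CDK16-sh1 and with CDK16-sh2, 1 lower at 1 μM, and 1 and 1 at 5 μM. With a mean of at least 5 CPM, which removed MMP2 and MMP3 from the knockdown experiment and MMP2 from the Reb experiment, none was higher with either hairpin (0), and with the GC trend removed none was lower with CDK16-sh1 (0). In the pooled Reb test, dose as a linear term called 3 of the 9 genes and 3819 genes in all, against 0 and 12, while library totals called 0 genes and no filter called 3. The fold of the dose fit was first taken per unit of log2(dose + 1), which called 2 of the 9 genes (MMP3 and PLAU) and 1612 genes in all. It was taken from DMSO to 5 μM after those counts had been seen, since 2-fold is otherwise a fold against the control. The 3 of 9 genes called by the dose fit are near its share over all 15655 tested genes. Single libraries and the few counts of MMP2 limit these values. The cause of these shifts was not tested beyond the settings named.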
